A study of Mus musculus with 8 samples.

Results

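The angiopoietin and Tie receptor system of the mouse was described here through 5 genes. They were Tek (ENSMUSG00000006386), Tie1 (ENSMUSG00000033191), Ptprb (ENSMUSG00000020154), Angpt1 (ENSMUSG00000022309) and Angpt2 (ENSMUSG00000031465). They were taken from the deposited gene table by gene name, with no filter on a measured value, and all 5 were found among the 35756 genes of the table. The set was chosen with earlier results of these data known. RNA was sequenced from cells that CD31 beads had bound in digested subcutaneous LLC1 tumors, LLC1 being a mouse Lewis lung carcinoma line. The labels give the strain of all 8 mice as C57BL/6, and the methods say that the Cre line had been back-crossed to C57BL/6J. According to the study's methods, both groups carried Tie2-CreERT2 and a heterozygous, Cre-dependent PPARβ/δ (Ppard) overexpression allele, PPARβ/δ-flox+/-, and were matched for age and sex. No age was stated for these mice. Injection of 4 mice with Tamoxifen in sunflower oil, before tumor cells were implanted, was meant to switch the allele on, and 4 mice received sunflower oil alone (vehicle). The deposited labels give the genotype of the vehicle mice as wild-type and that of the Tamoxifen mice as Ppard overexpression. Tie2 is another name of Tek, so Cre was driven by regulatory DNA of a gene described here, and that DNA is also known to be active in some blood-forming cells. None of the libraries came from Tie2-CreERT2 mice without the overexpression allele that were given Tamoxifen. Effects of Tamoxifen or of active Cre and effects of Ppard overexpression therefore cannot be told apart. Each library came from 1 mouse.

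Angiopoietins are secreted ligands that control whether blood vessels stay quiescent or become open to remodelling. Angpt1, released mainly by cells around the vessel, activates the receptor tyrosine kinase Tek on endothelial cells and stabilises the vessel, whereas Angpt2, released by endothelial cells themselves, activates Tek weakly and can block Angpt1. Tie1 is a related receptor with no well-established ligand of its own that modulates Tek, and Ptprb, also called VE-PTP, is an endothelial phosphatase that removes the phosphate groups activating Tek. In tumors, Angpt2 is known as a gene of activated, sprouting endothelium.

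The libraries held 19730726 to 24884372 counted reads. Levels are given as CPM, read counts per 1e6 reads after scaling of the libraries with TMM (trimmed mean of M-values), unless another unit is named. The TMM factors lay between 0.946 and 1.10 in 7 libraries and at 0.761 in vehicle oil2453, which stood apart. That library also differed from the other 3 vehicle libraries in its markers, with sums of 4706 against 10887 to 11922 CPM for macrophages, 2935 against 1167 to 1247 CPM for fibroblasts and 760 against 170 to 206 CPM for epithelial cells. The fibroblast sum came mainly from Col3a1, at 2488 CPM in oil2453. Dcn, Lum, Pdgfra and Fap were also highest of the vehicle group there, but Col1a1 and Col1a2 were not and Thy1 was lowest. The epithelial sum came mainly from Krt8 and Krt18, at 378 and 353 CPM in oil2453. Krt19 was also highest of the vehicle group there, but Krt7 and Epcam were not and Cdh1 was lowest, at 10.1 CPM. The part of these markers in results that change without oil2453 was not tested. Ppard was at 108 ± 24.6 CPM (SD, n = 4) with Tamoxifen and 74.4 ± 15.2 CPM (SD, n = 4) with vehicle, a log2 fold change of 0.53 that did not pass the test (edgeR adjusted p = 0.461). By quantitative RT-PCR on endothelial cells sorted from such tumors, the study reported more Ppard RNA in this Tamoxifen group than in its control groups. No source used here says whether reads of the overexpression allele count toward Ppard. The label of endothelial cells was met in all libraries by detected markers, since the summed level of 16 pan-endothelial markers was 2871 to 5326 CPM with Tamoxifen and 436 to 2065 CPM in the vehicle group. However, 12 macrophage and monocyte markers summed to 8044 to 14719 CPM with Tamoxifen and 4706 to 11922 CPM in the vehicle group, so the libraries were mixtures. In such bulk RNA, fewer cells of a type and less RNA per cell cannot be told apart.

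Tek lies on chromosome 4 of GRCm38 at 94739289 to 94874976 on the plus strand, with 23 merged exons, and Tie1 on the same chromosome at 118471191 to 118490061 on the minus strand, with 22. Ptprb spans 116301374 to 116389538 of chromosome 10 on the plus strand with 35 merged exons, Angpt1 spans 42424727 to 42676977 of chromosome 15 on the minus strand with 10, and Angpt2 spans 18690263 to 18741562 of chromosome 8 on the minus strand with 10. Angpt2 lies within the bounds of Mcph1, a gene of the opposite strand involved in chromosome condensation, with 0 exon bases in common. Mcph1 was at 11.7 to 22.0 CPM with Tamoxifen and 12.1 to 20.8 CPM in the vehicle group (log2 fold change 0.07, edgeR adjusted p = 0.938). Angpt1 shares 737 exon bases with the antisense gene Gm17473, which had 0 counts in all 8 libraries, and no source used here says whether reads were counted by strand.

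The promoters of both receptors are shown because no other member was matched to a promoter window, and because the overexpressed Ppard encodes a nuclear receptor. RefSeq promoter windows (GRCm38.p6) run from 250 bases before the annotated start site to 50 bases after it, and capitals mark motif matches. The Tek window is chr4:94739039-94739338 on the plus strand, and the Tie1 window is chr4:118489800-118490099 read on the minus strand.
Tek: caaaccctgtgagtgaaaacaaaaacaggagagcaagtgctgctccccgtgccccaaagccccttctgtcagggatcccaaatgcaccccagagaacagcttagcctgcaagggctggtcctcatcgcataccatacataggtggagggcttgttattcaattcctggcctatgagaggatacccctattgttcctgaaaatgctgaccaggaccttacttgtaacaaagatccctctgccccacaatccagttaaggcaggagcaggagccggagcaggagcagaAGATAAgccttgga
Tie1: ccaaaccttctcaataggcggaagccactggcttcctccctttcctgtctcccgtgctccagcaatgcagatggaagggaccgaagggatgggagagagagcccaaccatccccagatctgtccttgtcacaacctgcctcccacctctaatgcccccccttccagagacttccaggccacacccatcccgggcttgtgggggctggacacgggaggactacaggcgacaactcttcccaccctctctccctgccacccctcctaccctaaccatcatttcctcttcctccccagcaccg
Both strands were searched for the nuclear receptor half-site AGGTCA, the ETS motifs CCGGAAG and CAGGAAG, the GATA motif AGATAA, the forkhead motif GTAAACA and the hypoxia response cores ACGTG and GCGTG. The Tek window held 1 match, AGATAA at 37 bases after the start site, and 11.2% of 32851 mouse promoters held that motif. The Tie1 window held 0 matches. Of all promoters, 16.3% held AGGTCA, 8.86% CCGGAAG, 13.3% CAGGAAG, 3.65% GTAAACA, 19.6% ACGTG and 32.4% GCGTG. These are matches of letters in a short window and not binding sites. The RefSeq start site of Tek was the start of the gene in the deposited table, and that of Tie1 lay 212 bases inside it. GC content was 52.0% for Tek and 60.3% for Tie1, against a mean of 53.8% over all promoters. Angpt1, Angpt2 and Ptprb were not matched to a promoter window.

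Both receptors and the phosphatase were higher in all 4 Tamoxifen libraries than in any vehicle library, Angpt2 was higher on average with overlapping groups, and Angpt1 was near the detection floor at like levels in both groups. None of the 5 genes passed the main test across all genes, the quasi-likelihood test of edgeR, with a threshold of 0.05 on the p adjusted by Benjamini and Hochberg's method. That test called 0.0% of the 14539 genes tested, with a lowest adjusted p of 0.0732, and limma-voom called 0 genes as well. At an unadjusted p under 0.05, 1590 genes passed in either direction and 1075 genes, or 7.39%, passed as higher with Tamoxifen. Tek, Tie1, Ptprb and Angpt2 were 4 of those, and Angpt1 was not. Complete separation of the groups, with every Tamoxifen library above every vehicle library, was found for 3 of the 5 genes and for 5.87% of all genes tested. The median log2 fold change of the 5 genes was 2.24, against -0.03 over all genes tested. Tie1 and Ptprb also stand in the list of genes that the study called on these same libraries, so their direction there is not independent evidence.

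**Figure D1:**
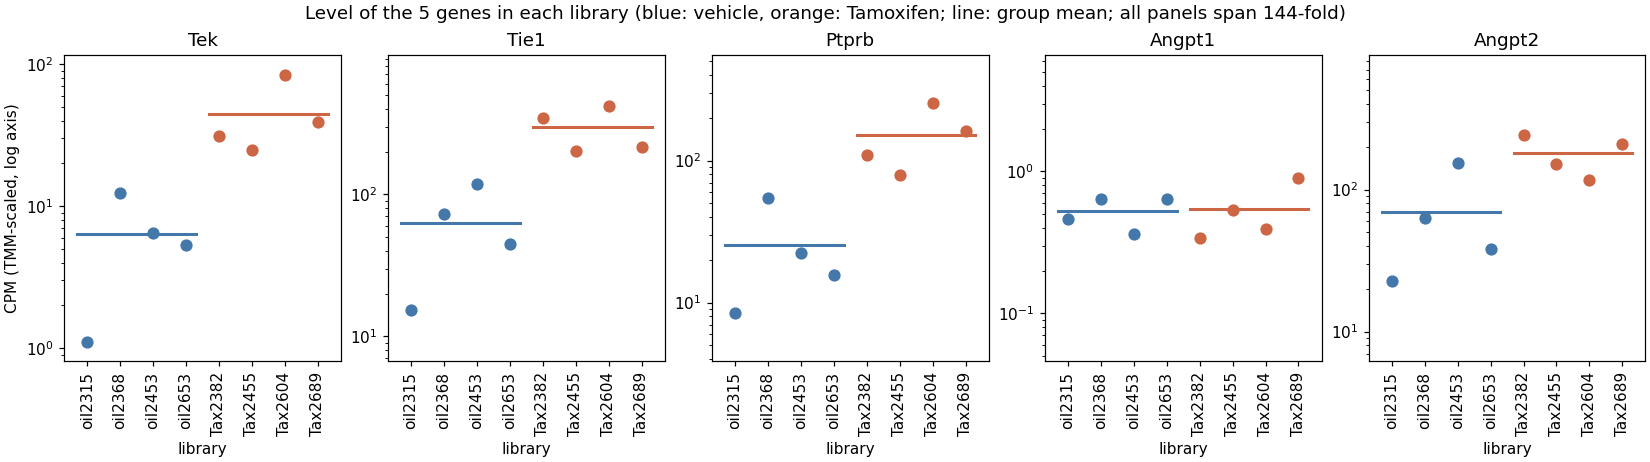
CPM of Tek, Tie1, Ptprb, Angpt1 and Angpt2 (log axes of equal span) in 4 vehicle libraries (blue) and 4 Tamoxifen libraries (orange), named by mouse number, with a line at each group mean. For Tek, Tie1 and Ptprb all orange points lie above all blue points, for Angpt2 vehicle oil2453 at 154 CPM lies above the 2 lower Tamoxifen libraries, and for Angpt1 the groups overlap throughout.

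Tek, the receptor that binds both angiopoietins, was at 31.2, 24.9, 84.3 and 39.2 CPM in Tamoxifen Tax2382, Tax2455, Tax2604 and Tax2689. In the vehicle libraries oil2315, oil2368, oil2453 and oil2653 it was at 1.11, 12.4, 6.45 and 5.31 CPM. The lowest Tamoxifen library thus lay above the highest vehicle library, and vehicle oil2315 was the lowest of all, with 24 reads. The means were 44.9 ± 26.9 CPM and 6.33 ± 4.67 CPM (SD, n = 4 per group), a 7.09-fold difference of means. The fitted log2 fold change was 2.83 (SE 0.66, edgeR adjusted p = 0.125). It was rank 43 from the top of the 14539 genes by fold change. An exact two-sided permutation test over the 8 libraries gave p = 0.0286, the smallest that 4 against 4 libraries allow. DESeq2 on the same counts called Tek (log2 fold change 2.81, adjusted p = 0.000889), with 3.78% of all genes tested called higher by that tool. A limma-trend fit on log2(FPKM + 1) also called it (2.39 on that scale, adjusted p = 0.0260), with 2.55% of 12350 genes called higher. Without its filter, FPKM above 1 in at least 4 libraries, that fit did not call Tek (adjusted p = 0.0779) and called 0 of 23453 genes.

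Tie1, the co-receptor of Tek, was the more abundant of both receptors in all 8 libraries by FPKM, fragments per kilobase of gene length. It stood at 347, 203, 418 and 217 CPM in Tamoxifen Tax2382, Tax2455, Tax2604 and Tax2689. The vehicle libraries oil2315, oil2368, oil2453 and oil2653 held 15.3, 72.6, 118 and 44.6 CPM. As for Tek, the groups did not overlap and Tamoxifen Tax2604 was the highest library, but the highest vehicle library was oil2453 for Tie1 and oil2368 for Tek. The means were 296 ± 104 CPM and 62.6 ± 43.6 CPM (SD, n = 4 per group), a 4.73-fold difference. The log2 fold change was 2.24 (SE 0.55, edgeR adjusted p = 0.140), rank 185 of 14539, and the exact permutation test gave p = 0.0286. Without vehicle oil2453 Tie1 rose past the threshold (log2 fold change 2.75, edgeR adjusted p = 0.0431), in a fit that called 1.72% of 14860 genes as higher. DESeq2 called Tie1 with all libraries (2.23, adjusted p = 0.00341), as did edgeR with library size scaling alone (2.43, adjusted p = 0.0488) and limma-trend on log2(FPKM + 1) (2.52, adjusted p = 0.0249). Limma-trend without the FPKM filter did not call Tie1 (adjusted p = 0.0702).

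Ptprb, the phosphatase acting on Tek, ranked the 8 libraries in the same order as Tek. Its levels were 110, 78.9, 254 and 160 CPM in Tamoxifen Tax2382, Tax2455, Tax2604 and Tax2689. In vehicle oil2315, oil2368, oil2453 and oil2653 they were 8.44, 54.9, 22.3 and 15.7 CPM. The groups were separate, vehicle oil2315 was again the lowest library and vehicle oil2368 the highest of its group. Group means were 151 ± 76.5 CPM and 25.3 ± 20.5 CPM (SD, n = 4 per group), a 5.95-fold difference. The log2 fold change of 2.57 (SE 0.59) ranked 85 of 14539 and had an edgeR adjusted p of 0.119, and the exact permutation p was 0.0286. Ptprb was called by DESeq2 (2.56, adjusted p = 0.000903) and by limma-trend on log2(FPKM + 1) (2.24, adjusted p = 0.0286), but not by limma-trend without the FPKM filter (adjusted p = 0.0865).

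Angpt2, the ligand released by endothelial cells, was at 241, 151, 118 and 210 CPM in Tamoxifen Tax2382, Tax2455, Tax2604 and Tax2689. In vehicle oil2315, oil2368, oil2453 and oil2653 it was at 22.7, 63.4, 154 and 38.4 CPM. The groups overlapped through a single vehicle library, oil2453, which lay above Tamoxifen Tax2455 and Tax2604. Tamoxifen Tax2604, the highest library for both receptors and the phosphatase, was the lowest of its group for Angpt2. The means were 180 ± 56.1 CPM and 69.6 ± 58.7 CPM (SD, n = 4 per group), a 2.59-fold difference. The log2 fold change was 1.37 (SE 0.54, edgeR adjusted p = 0.409), rank 670 of 14539, with an exact permutation p of 0.0857. DESeq2 did not call it either (1.35, adjusted p = 0.213). Without vehicle oil2453 it rose past the threshold (log2 fold change 2.12, SE 0.39, edgeR adjusted p = 0.0419). The overlap depended on the scaling of that library, because in the deposited FPKM, which the authors scaled by depth, vehicle oil2453 held 55.6 and the lowest Tamoxifen library 57.6, so that the groups did not overlap.

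Angpt1, the activating ligand of Tek, was the lowest of the 5 genes in every library by FPKM. Its counts were 8, 14, 8 and 21 reads in Tamoxifen Tax2382, Tax2455, Tax2604 and Tax2689 and 10, 14, 6 and 15 reads in vehicle oil2315, oil2368, oil2453 and oil2653. The groups overlapped over nearly their whole range. Summed over the 4 libraries, 51 reads (95% Poisson interval 38.0 to 67.1, counting error only) were counted with Tamoxifen and 45 reads (32.8 to 60.2) with vehicle. The group means were 0.540 ± 0.247 CPM and 0.527 ± 0.138 CPM (SD, n = 4 per group), a log2 fold change of 0.03 (SE 0.47, edgeR adjusted p = 0.986, exact permutation p = 0.943). With so few reads, small differences were not detectable at this depth. Platelets and their precursors also carry Angpt1, and 10 megakaryocyte and platelet markers summed to 161 to 811 CPM with Tamoxifen and 276 to 603 CPM in the vehicle group.

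The spread among vehicle libraries was wide for all members but Angpt1. The highest vehicle library exceeded the lowest 11.2-fold for Tek, 7.69-fold for Tie1, 6.79-fold for Angpt2 and 6.50-fold for Ptprb. Among Tamoxifen libraries these folds were 3.38, 2.06, 2.05 and 3.22 in the same order. Vehicle oil2315, the lowest library for each of the 4 genes, was also the one with the lowest summed level of the pan-endothelial markers, 436 CPM. Without it the log2 fold changes were 2.45 for Tek, 1.90 for Tie1, 2.26 for Ptprb and 1.06 for Angpt2, and edgeR called 0 of them. Without vehicle oil2453, the library with the lowest TMM factor, Tek stood at 2.84 (edgeR adjusted p = 0.124) and Ptprb at 2.52 (edgeR adjusted p = 0.126), beside the values already given for Tie1 and Angpt2.

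Levels of different genes were compared per gene length, on the deposited FPKM. The FPKM of Tek, Tie1 and Angpt2 correspond to shorter lengths than the gene lengths deposited beside them. The order of genes at like levels therefore depends on the length used. With vehicle the order was Angpt2 at 29.1 ± 19.3, Tie1 at 15.1 ± 8.63, Ptprb at 2.05 ± 1.78, Tek at 1.76 ± 1.39 and Angpt1 at 0.122 ± 0.042 FPKM (SD, n = 4). The ranges of neighbouring genes overlapped apart from Tek and Angpt1, but within each library Angpt2 lay above Tie1 and Tie1 above Ptprb in 4 of 4 cases. Ptprb and Tek did not differ beyond their spread by FPKM, since Ptprb was the higher in 2 of 4 libraries. By the deposited gene lengths, however, Ptprb would be the higher in every vehicle library. With Tamoxifen the order was Angpt2 at 88.2 ± 24.8, Tie1 at 81.7 ± 25.9, Tek at 13.6 ± 8.07, Ptprb at 13.1 ± 6.70 and Angpt1 at 0.134 ± 0.067 FPKM (SD, n = 4). Here Angpt2 and Tie1 were not distinct by FPKM, with a mean log2 difference of 0.12 ± 0.78 (SD, n = 4), and neither were Tek and Ptprb, with 0.02 ± 0.20 (SD, n = 4). In contrast, Tie1 exceeded Tek by 2.70 ± 0.54 log2 units (SD, n = 4) without overlap, and Ptprb exceeded Angpt1 by 6.61 ± 0.96 log2 units (SD, n = 4). By the deposited gene lengths, Ptprb would lie above Tek in every Tamoxifen library, and Tie1 above Angpt2 in all of them but Tax2689.

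**Figure D2:**
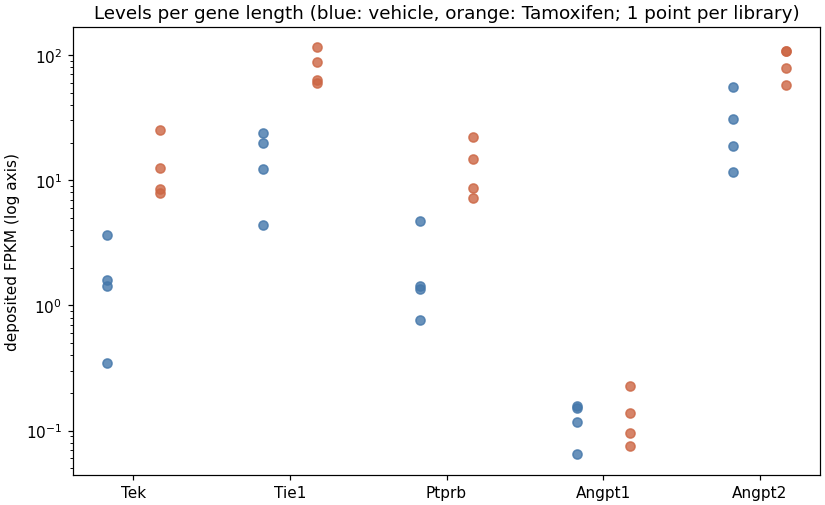
Deposited FPKM (log axis) of the 5 genes, 1 point per library, vehicle in blue and Tamoxifen in orange. Angpt2 and Tie1 form the upper level, Tek and Ptprb an intermediate one, and Angpt1 lies below 1 FPKM in all 8 libraries.

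Ratios between members hardly depend on the scaling between libraries and were compared without a test, on log2(CPM + 0.5). The ratio of the ligands, Angpt2 over Angpt1, was 8.17, 7.19, 7.05 and 7.25 log2 units in Tamoxifen Tax2382, Tax2455, Tax2604 and Tax2689 and 4.59, 5.81, 7.49 and 5.09 in vehicle oil2315, oil2368, oil2453 and oil2653. The means were 7.41 ± 0.51 and 5.74 ± 1.27 (SD, n = 4 per group), and the groups overlapped through vehicle oil2453. Angpt1 rests on 6 to 21 reads a library, which limits the precision of this ratio. The 0.5 added was also close to the level of Angpt1 itself, 0.340 to 0.889 CPM over all libraries, and lowered this ratio. Without it, the CPM ratio of Angpt2 to Angpt1 was 236 to 710 with Tamoxifen and 48.9 to 426 with vehicle. The ratio of Tie1 to Tek had a mean of 2.80 ± 0.53 under Tamoxifen and 3.21 ± 0.67 under vehicle (SD, n = 4 per group), a difference of -0.41 with overlapping groups. Ptprb over Tek had a mean of 1.76 ± 0.19 under Tamoxifen and 1.94 ± 0.44 under vehicle (SD, n = 4 per group), a difference of -0.18 with overlapping groups. Differences in proportion among the 3 genes that separated the groups were thus within the spread of the libraries.

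Markers of the vessel wall moved with these results. Of the 16 pan-endothelial markers, none of which is one of the 5 genes, in 13 the lowest Tamoxifen library exceeded the highest vehicle library, and their median log2 fold change was 1.90. Cdh5, the cadherin of endothelial junctions, had a log2 fold change of 2.74 and Pecam1, which encodes the CD31 used for isolation, one of 1.50 (edgeR adjusted p = 0.0732 and 0.0871). Of 12 mural cell markers, for pericytes and smooth muscle, 9 were separate in the same direction with a median of 2.10, and their summed level was 658 to 965 CPM with Tamoxifen and 58.1 to 235 CPM in the vehicle group. No marker of either list was at 0 in any library. The median log2 fold changes of the macrophage, fibroblast, platelet, lymphocyte and epithelial lists were 0.13, 0.30, -0.32, -1.52 and -0.64, and 0 genes of these lists were separate with Tamoxifen higher. Single vehicle libraries carried several of these medians. The 10 lymphocyte markers summed to 632 CPM in oil2653 and to 21.5 to 107 CPM in the other 7 libraries, and without oil2653 their median was -0.0152. Without oil2453, in contrast, the epithelial median was -0.13, the platelet median 0.41, the macrophage median -0.20 and the fibroblast median 0.64, while the pan-endothelial and mural medians were 2.38 and 2.15. The part of the cell mixture in the levels of the 5 genes was not tested.

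Against the mean of the 16 endothelial markers, taken as log2 CPM in the same library, the differences of Tek, Tie1 and Ptprb became smaller. That marker mean stood at 7.20 ± 0.39 under Tamoxifen and 5.10 ± 1.10 under vehicle (SD, n = 4 per group). Tie1 lay above it by 0.72 to 1.10 log2 units in the Tamoxifen libraries and by 0.33 to 0.69 in the vehicle libraries, a difference of 0.41 with no overlap, although Tamoxifen Tax2689 and vehicle oil2368 nearly touched. Tek lay below it by a mean of -1.85 ± 0.52 with Tamoxifen and -2.67 ± 0.71 with vehicle (SD, n = 4 per group), and Ptprb by -0.09 ± 0.50 and -0.73 ± 0.86 (SD, n = 4 per group). Both had overlapping groups on this scale. Angpt2 was at 0.24 ± 0.65 with Tamoxifen and 0.67 ± 0.33 with vehicle (SD, n = 4 per group), the opposite direction to its CPM, again with overlap. Angpt1 was lower on this scale in every Tamoxifen library, at -7.17 ± 0.63 against -5.07 ± 1.15 (SD, n = 4 per group). Its own CPM was nearly equal in both groups.

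**Figure D3:**
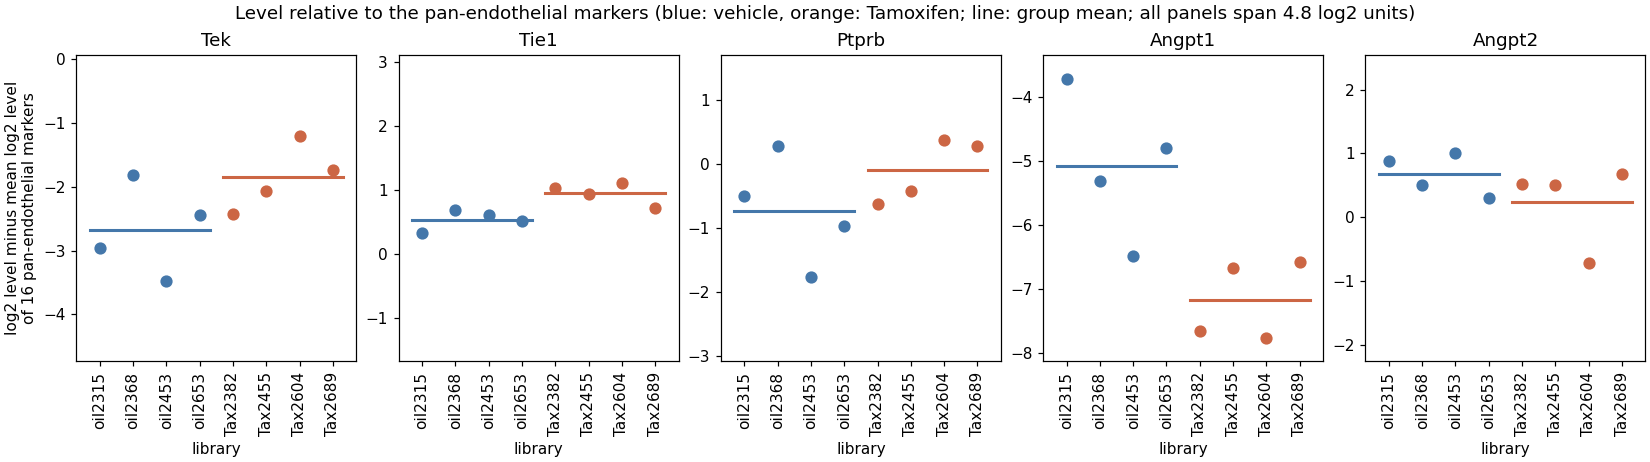
Log2 level of each gene minus the marker mean (16 pan-endothelial markers, log2 CPM) of that library (axes of equal span), vehicle in blue and Tamoxifen in orange, with a line at each group mean. The groups are separate for Tie1, with Tamoxifen higher by 0.41, and for Angpt1, with Tamoxifen lower, and overlap for Tek, Ptprb and Angpt2.

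In a fit whose libraries were scaled to the summed counts of these markers, the median of all genes moved to a log2 fold change of -2.22 and the members moved with it. That sum weighs each marker by its level, unlike the mean of log2 levels used above. Tek was then at 0.99 (SE 0.68, edgeR adjusted p = 0.156), Ptprb at 0.68 (SE 0.64, adjusted p = 0.301) and Tie1 at 0.51 (SE 0.63, adjusted p = 0.430). Angpt2 turned to -0.24 (SE 0.63, edgeR adjusted p = 0.718). Angpt1 was called lower at -1.99 (SE 0.87, edgeR adjusted p = 0.0264), which was 0.23 above the median of all genes in that fit. This scaling called 12840 genes lower and 2 higher, so a call under it was the rule and not particular to Angpt1, and without vehicle oil2315 the call of Angpt1 was lost (-1.62, edgeR adjusted p = 0.0761).

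**Figure D4:**
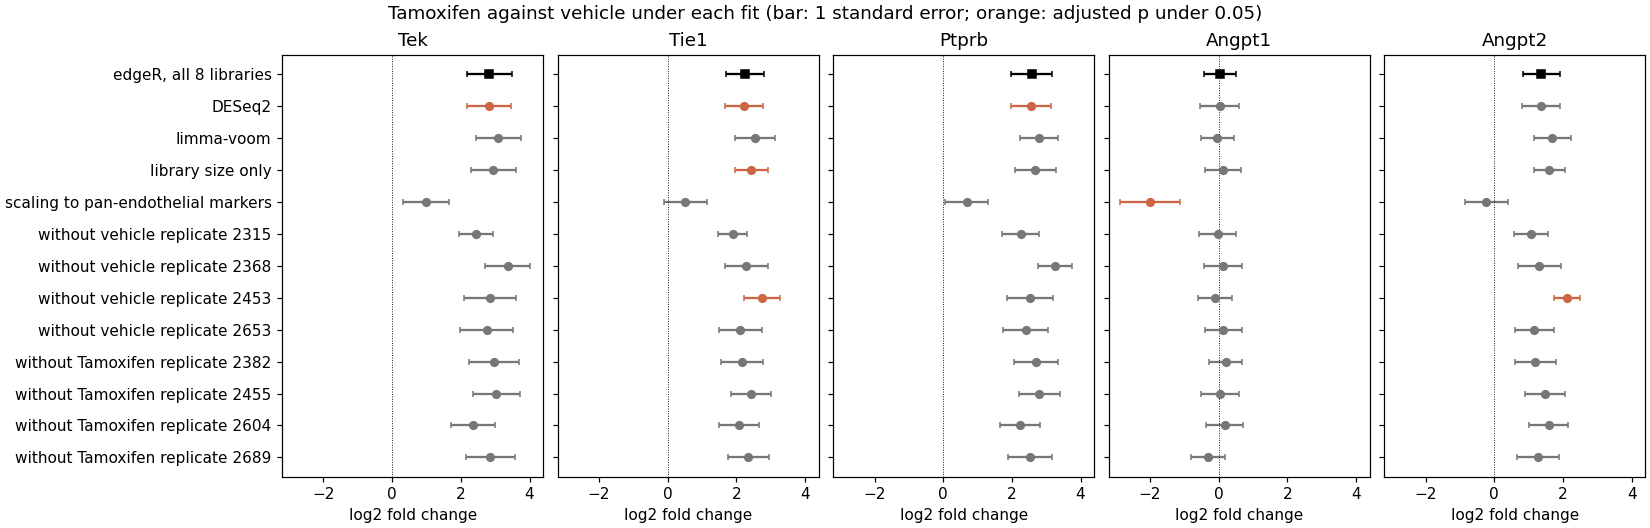
Log2 fold change, Tamoxifen against vehicle, of each gene under the main edgeR fit (black), other tools and scalings, and fits without 1 library, with bars of 1 standard error and orange where the adjusted p was under 0.05. Tek, Tie1 and Ptprb stay above 0 in all fits shown, and Angpt2 lies below 0 only under scaling to pan-endothelial markers (-0.24) and past the threshold only without vehicle oil2453 (2.12).

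Levels of the members were also compared across the 8 libraries by Pearson's r of log2 CPM, as a description without a test. The libraries share 2 groups and differ in endothelial marker level, so r after centring each group is given in brackets. Tek and Ptprb had an r of 0.982 (0.937), Tek and Tie1 0.951 (0.835), and Tie1 and Ptprb 0.916 (0.705). Angpt2 was closer to Tie1, with 0.905 (0.780), than to Tek, with 0.783 (0.449), or Ptprb, with 0.759 (0.366). Tie1 was the member closest to the pan-endothelial marker mean, with 0.998 (0.993), and Angpt1 the farthest, with -0.171 (-0.271). Between Angpt1 and the other members r lay between -0.196 (-0.323), for Tie1, and 0.057 (0.150), for Ptprb.

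Among 9156 genes with a mean of at least 10 CPM, the patterns most like Tek were those of Lrrc32, Sox7 and Cd300lg, with r of 0.991 (0.970), 0.990 (0.966) and 0.990 (0.967). Sox7 encodes a transcription factor, Lrrc32 a surface protein that holds latent TGF-beta, and Cd300lg a receptor of the CD300 family. For Tie1 they were Dll4, a Notch ligand, at 0.996 (0.990), Arhgef15 at 0.995 (0.989) and Mcam, an adhesion molecule that is also in the mural list, at 0.995 (0.985). Atp8b1, a lipid flippase, Plcb4, a phospholipase, and Prex2, an exchange factor for Rac, were the most like Ptprb, at 0.992 (0.969), 0.989 (0.957) and 0.988 (0.955). For Angpt2 they were Kcnj8, a potassium channel subunit in the mural list, at 0.986 (0.970), Tspan6, a tetraspanin, at 0.970 (0.933) and 8430408G22Rik at 0.966 (0.935). Angpt1, with its low counts, had lower values of 0.941 (0.943) for Ctsk, the protease cathepsin K, 0.922 (0.936) for Ccdc47 and 0.917 (0.931) for Ap1ar.

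The wider pathway was described through 51 genes in 5 lists, of which 45 had enough counts to be tested. None passed the edgeR threshold, 10 were under an unadjusted p of 0.05 as higher (7.39% of all genes tested were) and 0 as lower, and 7 were higher in every Tamoxifen library. Their median log2 fold change was 0.33, and 36 of 45 were above 0. Of all genes tested, 5.87% were separate in that direction, and both shares apply to the counts of each list given next.

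Among further ligands and binding partners, 5 of 7 genes were tested, 1 was under an unadjusted p of 0.05 and the median was 0.47. Itgb3, the integrin beta-3 chain, had a log2 fold change of 1.31 (edgeR adjusted p = 0.216) and separate groups. Itgb1, the integrin beta-1 chain, was also separate with a smaller value of 0.36, whereas Itgav and Itga5, alpha chains that pair with them, overlapped at 0.47 and 0.40. Angpt4, the mouse counterpart of human ANGPT4, and Lect2, reported as a ligand of Tie1, were too low to be tested, with 17 and 13 reads in all.

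Of the 18 adaptors and signalling enzymes downstream of Tek, 17 were tested with a median of 0.13. Nos3, the endothelial nitric oxide synthase, was at 47.0 ± 25.1 CPM with Tamoxifen and 9.20 ± 6.60 CPM in the vehicle group (SD, n = 4 per group), with separate groups and a log2 fold change of 2.36 (edgeR adjusted p = 0.140). It was the 1 gene of the list under an unadjusted p of 0.05. The phosphatase Ptpn11 stood at 0.38, the adaptor Nck1 at 0.44 and the adaptor Grb14 at -1.10, each with overlapping groups. Grb14 was at 4.95 CPM in vehicle oil2453 and at 0.960 to 1.95 CPM in the other vehicle libraries, and stood at -0.35 without oil2453.

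Proteases that shed Tie receptors, and their regulators, were all 7 tested, with a median of 0.59. Timp3, an inhibitor of such proteases, was at 85.2 ± 32.5 CPM with Tamoxifen and 13.6 ± 12.1 CPM in the vehicle group (SD, n = 4 per group), separate between the groups with a log2 fold change of 2.64 (edgeR adjusted p = 0.117). Adam10, a membrane protease, was under an unadjusted p of 0.05 at 0.61, with overlap. Furin, a proprotein convertase, and Rhbdf2, a regulator of Adam17, stood at 0.71 and 0.59, with overlapping groups.

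Transcription factors known to act on Tek, Tie1 or Angpt2 had 6 of 12 genes under an unadjusted p of 0.05, 3 separate genes and a median of 0.52. Erg, an ETS factor of endothelium that is also in the pan-endothelial list, was at 48.3 ± 19.3 CPM with Tamoxifen and 10.3 ± 5.01 CPM in the vehicle group (SD, n = 4 per group), a log2 fold change of 2.22 (edgeR adjusted p = 0.0814). Epas1, the hypoxia-inducible factor HIF-2alpha, was at 184 ± 59.6 CPM and 43.9 ± 26.6 CPM (SD, n = 4 per group), a log2 fold change of 2.07 (edgeR adjusted p = 0.112). Tal1, a factor of blood and endothelial cells, stood at 1.65 with separate groups, and the ETS factor Fli1 at 0.96 with overlap.

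The angiopoietin-like proteins, which resemble angiopoietins but do not bind Tek, had 4 of 7 genes tested, 0 separate and a median of -0.57. Angptl7 stood at -2.19, Angptl2 at -0.74, Angptl4, a lipase inhibitor and known PPAR target, at 0.69 and Angptl6 at -0.40, all with overlapping groups. The value of Angptl7 rested on vehicle oil2453, where it was at 19.6 CPM against 0.183 to 1.41 CPM in the other vehicle libraries. Without that library Angptl7 stood at 0.36, Angptl6 at 0.0720 and Angptl2 at -0.47, and the median of the 5 genes then tested was 0.36. DESeq2 called 5 of the 45 pathway genes, namely Erg, Timp3, Epas1, Tal1 and Nos3, all higher with Tamoxifen, beside 3.78% of all genes tested. Without vehicle oil2453, where 1.72% of genes were called higher, edgeR called Angptl4 at 2.13 (adjusted p = 0.0382), Nos3 at 2.93 (adjusted p = 0.0419) and Erg at 2.44 (adjusted p = 0.0419), and without vehicle oil2368, where 0.21% were, it called Timp3 at 3.42 (adjusted p = 0.0397).

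**Figure D5:**
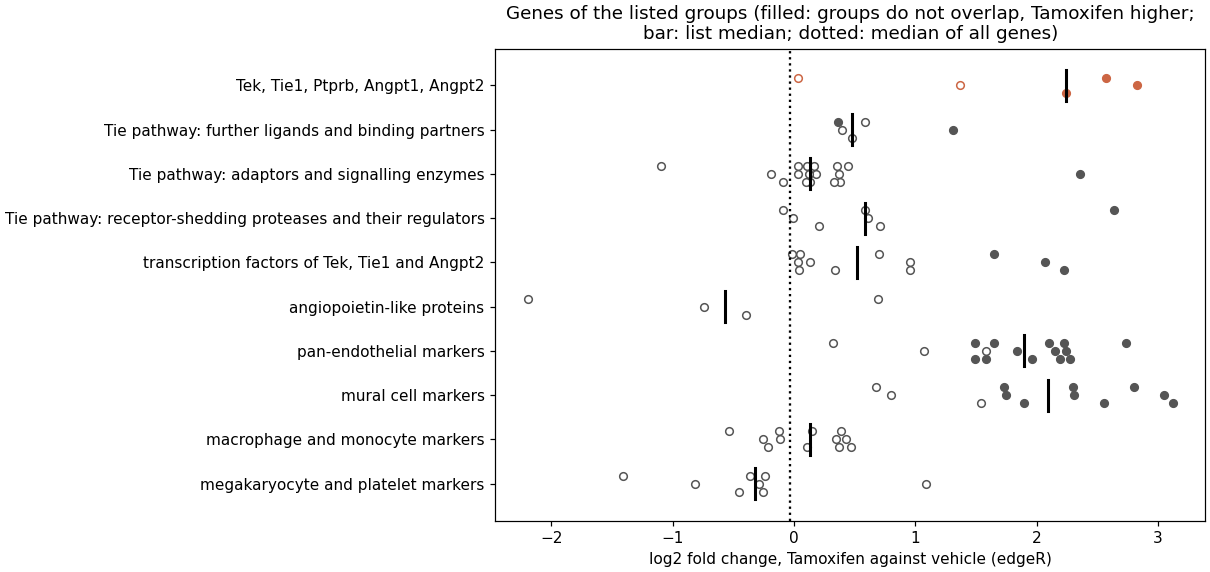
Log2 fold change, Tamoxifen against vehicle (edgeR), of the 5 genes (orange) and of the genes tested in 9 further lists (grey). Filled points are genes with every Tamoxifen library above every vehicle library, black bars are list medians and the dotted line is the median of all genes tested (-0.03). The median of the 5 genes (2.24) lies near those of the pan-endothelial (1.90) and mural (2.10) markers, but Angpt1 (0.03) lies below every gene of both marker lists. The medians of the pathway lists lie between -0.57 and 0.59.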

How the data were processed

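Endothelial cells of 8 tumors were profiled by RNA-seq, with 1 library per mouse and 4 mice per group. The authors removed low-quality reads, aligned with TopHat2 2.0.12 and Bowtie2 2.2.3 and used HTSeq 0.6.1 to count them per gene. In the processing notes of the submitters the build is mm8, but 99.8% of 34490 gene IDs shared with GENCODE M21 overlapped their GRCm38 positions, so positions are given as GRCm38. The authors deposited raw read counts per gene, FPKM that their methods derive from count and gene length, and a gene length in bases (another kind of value, printed nowhere here). The FPKM of Ptprb and Angpt1 correspond to that deposited length, but those of Tek, Tie1 and Angpt2 correspond to shorter lengths. The group means, fold changes and p-values of the authors were not used.

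Counts were scaled with TMM and tested with edgeR 4.0.16 (glmQLFit, glmQLFTest; filterByExpr, minimum count 10; R 4.3.3), Tamoxifen against vehicle without covariates. The 14539 genes tested shared 1 Benjamini-Hochberg adjustment. The SE of a log2 fold change was derived from its F statistic. Exact permutation tests were two-sided over 70 assignments of the 8 libraries. DESeq2 1.42.0, limma 3.58.1 (voom, and trend on log2 FPKM with a pseudocount of 1 or 0.1), other scalings and filters, and fits without each library were alternatives. The p-values set the difference between the groups against the spread between these mice.

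The 5 members, 12 gene lists and tests were chosen with earlier results of these data known. Ppard, Pecam1 and Cdh5 were named as checks, with the genes overlapping a member. Of each pathway list, the 4 genes with the lowest p were named, and for each member the 3 genes with the highest r across libraries. For marker lists, summed levels and medians were given. Genes named besides these are Angpt4 and Lect2, which were named after their values were seen because they were not tested. The fibroblast and epithelial markers given for vehicle oil2453 were also named after their values were seen.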

Additional observations from a re-analysis of the deposited data

How the results depend on the processing

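All 21 alternatives kept Tek, Tie1 and Ptprb above 0. Tek also passed the threshold under limma-trend on log2(FPKM + 0.1) (3.08, adjusted p = 0.0464), Tie1 there (2.62, adjusted p = 0.0360) and Ptprb there (2.79, adjusted p = 0.0417). DESeq2 called Tek at 2.81, Tie1 at 2.23 and Ptprb at 2.56, limma-trend on log2(FPKM + 1) called them at 2.39, 2.52 and 2.24, and library size scaling called Tie1 at 2.43. The calls of limma-trend on log2(FPKM + 1) depended on its FPKM filter. Without that filter it called 0 of 23453 genes, with adjusted p of 0.0779 for Tek, 0.0702 for Tie1 and 0.0865 for Ptprb. In DESeq2 without vehicle oil2453, an alternative chosen after seeing the data, Tek was at 2.84, Tie1 at 2.75, Ptprb at 2.52 and Angpt2 at 2.13, all called. Angpt2 was at -0.24 under scaling to the pan-endothelial markers, and at -0.0503 and -0.26 when vehicle oil2453 or oil2315 was also left out, both again chosen after seeing the data. Angpt1 was at -0.0435 under limma-voom, -0.10 in DESeq2 without vehicle oil2453, and -1.99 under marker scaling (-2.32 without vehicle oil2453, -1.62 without vehicle oil2315). It gave no value with 10 counts required in each library or in the filtered FPKM fits. Leaving out 1 library at a time gave 2.36 to 3.36 for Tek, 1.90 to 2.75 for Tie1, 2.23 to 3.25 for Ptprb, -0.32 to 0.20 for Angpt1 and 1.06 to 2.12 for Angpt2, with edgeR adjusted p of 0.0971 to 0.344, 0.0431 to 0.373, 0.0532 to 0.330, 0.860 to 0.984 and 0.0419 to 0.673. The cause of these moves was not tested. Genes called over the whole table were 0 in the main analysis, 177 with library size scaling, 12842 with marker scaling, 574 with DESeq2 (796 without vehicle oil2453), 68 without a count filter and 0 to 256 with 1 library left out, where vehicle oil2453 gave 256 and vehicle oil2368 gave 31. For the 45 pathway genes these counts were 0, 2, 36, 5 (8), 1 and 0 to 3. The 3 ratios between members moved by less than their SD under all alternatives. Depth limits Angpt1, with 6 to 21 reads a library. No paired analysis was possible because the groups share no replicate numbers.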
